A study of Mus musculus with 8 samples.

Results

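The genes described here are 36 genes of mitosis and of the step from G2 into M phase. They were chosen by name from what their proteins do, with earlier results of these data known. Every probe on the array whose RefSeq accession belonged to 1 of them was taken, which gave 46 probes for all 36 genes, out of 55681 distinct probes and 20660 genes with a probe. RNA of 8 whole mouse embryos at embryonic day (E) 8.5 was measured, each on its own single-colour Agilent expression array. The study asked whether reduced function of EED in a father alters gene expression in his offspring.

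Males on a mixed C57bl6/129 background were either homozygous (HOM) or heterozygous (HET) for Eedl7Rn5-1989SB, a hypomorphic allele of *Eed* that lowers but does not remove the function of EED, a core component of Polycomb Repressive Complex 2. They were mated with wild-type females of the same background, and all 8 embryos, in both groups, carried 1 hypomorphic and 1 wild-type allele. The groups, embryos of HOM fathers (*n* = 4) and of HET fathers (*n* = 4), with 2 females and 2 males in each, had the same *Eed* genotype, and the labels tell them apart by the genotype of the father. The study's methods give fewer sires than embryos in a group, which means that some embryos shared a father, and the labels do not say which. The tests treat the 4 embryos as independent, and their p-values measure only the spread between these embryos.

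A cell enters mitosis when cyclin B and cyclin A activate their partner kinase, which CDC25 phosphatases switch on and WEE1 holds back. The spindle checkpoint (BUB and MAD proteins, TTK) reads the attachment of kinetochores to the spindle and holds back the anaphase-promoting complex (APC/C) until every chromosome is attached. The APC/C, with its activators CDC20 and FZR1 and the ubiquitin-conjugating enzyme UBE2C, then marks securin and the cyclins for destruction, which frees separase to part the chromatids. RNA of many of these genes, though not of all, is known to rise in dividing cells as they approach mitosis. In tissue, RNA of those genes is commonly read as a mark of proliferation.

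Between 51.9% and 60.8% of spots on an array were well above background and none was saturated. All 46 probes of the mitotic genes passed the expression filter that 29732 probes passed, and all 46 were well above background on all 8 arrays. All 20 markers fixed for blood, heart, mesoderm, neural tissue and endoderm were well above background on every array. So were 2 of the 3 trophoblast and placenta markers with a probe, and 3 of the 4 decidual markers. The others, *Tpbpa*, a marker of placenta, and *Prl3c1*, a marker of decidua, were not well above background on any array. The 4 arrays of each father group shared a slide that held no array of the other group, so for every value given for the fathers a difference between slides and a difference between fathers cannot be told apart.

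To determine whether mitotic genes differed with the genotype of the father, signals were set on the log2 scale relative to the 75th percentile of the same array ("normalised log2 signal") and tested with limma across all 29732 probes. Of the 36 genes 5 were lower in embryos of HOM fathers at an adjusted p below 0.05, and none was higher. These were *Ube2c*, *Bub3*, *Nek2*, *Cdc20* and *Fzr1*. Of these, *Cdc20* and *Fzr1* encode activators of the APC/C, and *Ube2c* a ubiquitin-conjugating enzyme that works with it. Each of the 5 was lower by between 12.3% and 15.9%. No member reached the study's limit of an adjusted p below 0.01 with a 2-fold change, which 1.26% of all tested probes met. Counted by probe, 7 of 46 (15.2%) were lower, compared with 8.69% of all tested probes, and 0 of 46 were higher, compared with 12.3% of all and with 9.34% and 4.55% of all in the 2 brighter of 4 quartiles of signal, where 42 of the 46 lay. In bulk RNA, fewer cells of a type and less RNA per cell cannot be told apart.

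The share of probes lower in embryos of HOM fathers rose with signal over the whole array, and the mitotic genes lay among the brighter probes. When all tested probes were divided into quartiles by their mean signal, 1.78%, 4.48%, 10.5% and 18.0% were lower, from the dimmest quartile to the brightest, with median log2 changes of 0.13, 0.01, -0.05 and -0.09. The mitotic genes had 0, 4, 16 and 26 of their probes in these quartiles. In the brightest quartile 5 of 26 (19.2%) were lower, and in the next 2 of 16 (12.5%), both close to the share of all probes of like signal, and the members' median change there, -0.09 and -0.02, was near that of all probes as well. The count of lower members is therefore not a result about mitotic genes as a class. The median change of the 46 probes was -0.07, compared with -0.02 over all tested probes, and under quantile normalisation it was -0.02, compared with -0.04.

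**Figure D1:**
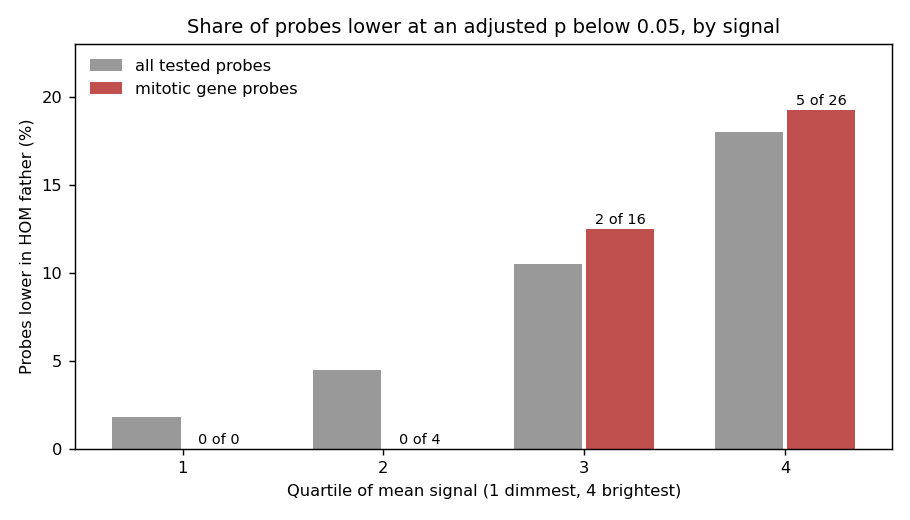
Percentage of probes with a lower signal in embryos of HOM fathers at an adjusted p below 0.05 (y axis), in 4 quartiles of mean signal over the 8 arrays (x axis), for all tested probes (grey) and for probes of the 36 mitotic genes (red, with counts above the bars). Both rise with signal, to 18.0% of all probes and 19.2% of mitotic gene probes in the brightest quartile.

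Sequences just before the transcription start are shown for the 5 genes that were lower and, for comparison, for *Ccnb1* and *Plk1*, which were not called, since promoters of genes expressed in G2 and M phase are known for the cell cycle genes homology region (CHR) and for CCAAT boxes. Capitals mark TTTGAA or TTCGAA, or the reverse complement TTCAAA, for the CHR, and CCAAT or ATTGG for the CCAAT box. TTCGAA reads the same on both strands. Each run holds the 120 bases that end at the base before the RefSeq start, 5′ to 3′ on the strand of the gene, in build GRCm38.p6. *Bub3* has more than 1 window, and the first by position is shown.
*Ube2c*, chr2:164769809-164769928, + strand: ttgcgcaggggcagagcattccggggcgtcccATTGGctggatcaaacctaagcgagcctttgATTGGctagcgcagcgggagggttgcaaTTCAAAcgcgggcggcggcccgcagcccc
*Cdc20*, chr4:118437344-118437463, - strand: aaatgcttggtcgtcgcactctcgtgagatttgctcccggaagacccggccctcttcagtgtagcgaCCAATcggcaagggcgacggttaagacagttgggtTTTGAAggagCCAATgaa
*Fzr1*, chr10:81378371-81378490, - strand: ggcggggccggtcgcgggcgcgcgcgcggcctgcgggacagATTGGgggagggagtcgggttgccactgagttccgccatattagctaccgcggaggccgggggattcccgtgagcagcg
*Bub3*, chr7:131560250-131560369, + strand: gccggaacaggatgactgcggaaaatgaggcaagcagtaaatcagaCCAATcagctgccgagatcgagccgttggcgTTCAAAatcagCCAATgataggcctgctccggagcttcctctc
*Nek2*, chr1:191821353-191821472, + strand: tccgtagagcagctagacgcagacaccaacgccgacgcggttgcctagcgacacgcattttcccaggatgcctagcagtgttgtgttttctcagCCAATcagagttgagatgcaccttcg
*Ccnb1*, chr13:100786487-100786606, - strand: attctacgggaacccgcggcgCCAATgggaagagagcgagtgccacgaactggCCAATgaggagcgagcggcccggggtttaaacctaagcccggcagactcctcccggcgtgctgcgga
*Plk1*, chr7:122159315-122159434, + strand: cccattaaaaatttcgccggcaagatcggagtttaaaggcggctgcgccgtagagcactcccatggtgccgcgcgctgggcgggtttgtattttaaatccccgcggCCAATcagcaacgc

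All 7 runs hold a CCAAT box, and those of *Ube2c*, *Cdc20* and *Bub3* also hold the CHR letters, with their first base 29, 18 and 43 bases before the start. In *Cdc20* the CHR letters are followed closely by a second CCAAT box, 8 bases before the start. RefSeq windows of 300 bases (250 before the start and 50 after) were found for 31 of the 36 genes. The CHR letters were present in 23 of the 31, that is in 76.5% of their 34 windows compared with 19.2% of 32851 windows of all genes, and the CCAAT letters were present in 24, that is in 79.4% of windows compared with 37.4%. No CHR match overlapped a CCAAT match. Among the genes with a window, CHR letters were found in 3 of the 5 lower genes and in 20 of the 26 others. A match of letters is a description and not a binding site. *Tpx2*, *Kif20a*, *Cdc25c*, *Ccna2* and *Wee1* had no window.

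The machinery of mitotic exit held 3 of the 5 lower genes. The brightest probes of all 3 lay in the brightest quartile of signal, where 18.0% of all tested probes were lower. *Ube2c*, which encodes the ubiquitin-conjugating enzyme that primes substrates of the APC/C, had normalised log2 signals of 4.40, 4.47, 4.42 and 4.46 in embryos of HOM fathers and of 4.61, 4.65, 4.77 and 4.71 in embryos of HET fathers. Every embryo of a HOM father lay below every embryo of a HET father. The change was -0.25 ± 0.05 (SE), a 1.19-fold lower signal (limma adjusted p = 0.0119), and the second *Ube2c* probe gave -0.26 (limma adjusted p = 0.0216), again without overlap. *Cdc20*, the APC/C activator that the spindle checkpoint inhibits, gave 5.93, 6.00, 5.90 and 5.93 with HOM fathers and 6.06, 6.13, 6.20 and 6.17 with HET fathers. The groups did not overlap, and the change was -0.20 ± 0.05 (limma adjusted p = 0.0277). *Fzr1* encodes CDH1, the activator that takes over from CDC20 late in mitosis and in G1. Its brighter probe gave 3.49, 3.43, 3.48 and 3.43 with HOM fathers and 3.59, 3.59, 3.75 and 3.66 with HET fathers. Again no embryo of a HOM father reached the lowest embryo of a HET father, and the change was -0.19 ± 0.05 (limma adjusted p = 0.0366), with -0.24 at the dimmer probe (limma adjusted p = 0.0350).

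The other genes of mitotic exit did not pass the test. *Espl1*, which encodes separase, was at 1.87, 2.05, 1.89 and 1.86 with HOM fathers and at 2.02, 2.21, 2.23 and 2.12 with HET fathers, with 1 HOM father embryo inside the range of the HET fathers. The change of -0.23 ± 0.07 had an adjusted p of 0.0507, just outside the threshold. *Espl1* is named because of this value. *Cdca3*, which encodes an adaptor that targets WEE1 for destruction, had a change of 0.08 (limma adjusted p = 0.369), and *Pttg1* is described below.

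**Figure D2:**
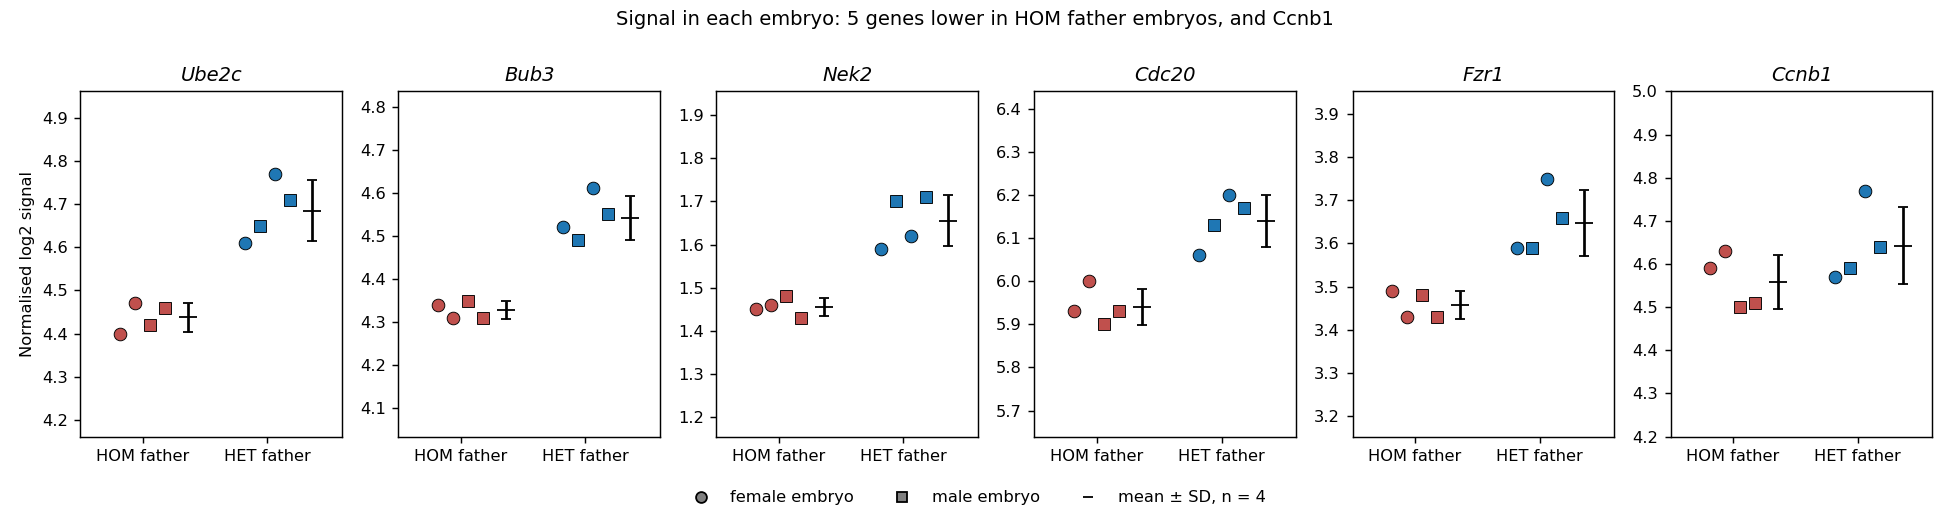
Normalised log2 signal (y axis, each panel spanning 0.8 log2 units) in each embryo of HOM fathers (red) and HET fathers (blue) for the 5 genes that were lower and for *Ccnb1*, with females as circles, males as squares and the mean ± SD (*n* = 4) as bars. The groups do not overlap in the first 5 panels, and overlap for *Ccnb1*, where they run from 4.50 to 4.63 and from 4.57 to 4.77.

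Of the 5 spindle checkpoint genes 1 was lower. *Bub3*, whose product brings BUB1 and BUBR1 to the kinetochore, was at 4.34, 4.31, 4.35 and 4.31 in embryos of HOM fathers and at 4.52, 4.49, 4.61 and 4.55 in embryos of HET fathers. The embryos of HOM fathers lay close together and below all others, and the change was -0.22 ± 0.04 (limma adjusted p = 0.0130). *Bub1*, the checkpoint kinase, was at 3.34, 3.06, 2.95 and 3.16 with HOM fathers and at 3.20, 3.16, 3.29 and 3.21 with HET fathers, where both the highest and the lowest embryo had a HOM father (change -0.09, 95% confidence interval -0.29 to 0.11). For *Bub1b*, which encodes BUBR1, the values were 2.39, 2.33, 2.34 and 2.30 against 2.43, 2.41, 2.50 and 2.31. These overlapped, with a change of -0.07 (interval -0.19 to 0.05). *Mad2l1* encodes MAD2, the protein that binds CDC20 in the checkpoint complex. Its brightest probe gave 4.78, 4.71, 4.68 and 4.68 with HOM fathers and 4.65, 4.68, 4.61 and 4.69 with HET fathers, which overlap, with a change of 0.06 (interval -0.05 to 0.16) that turned to -0.13 under median scaling. Its other probes gave 0.02 and -0.06. *Ttk*, the checkpoint kinase MPS1, had a change of 0.08 (limma adjusted p = 0.532).

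Among the 8 genes of mitotic entry *Nek2* alone was lower. *Nek2*, which encodes a kinase that separates the centrosomes, was at 1.45, 1.46, 1.48 and 1.43 with HOM fathers and at 1.59, 1.70, 1.62 and 1.71 with HET fathers. The groups did not overlap and the change was -0.20 ± 0.05 (limma adjusted p = 0.0204). The brightest probe of *Ccnb1*, cyclin B1, gave 4.59, 4.63, 4.50 and 4.51 against 4.57, 4.59, 4.77 and 4.64. Here the groups overlapped, the change was -0.08 (interval -0.22 to 0.06), and the other *Ccnb1* probes gave -0.03 and 0.04. *Ccna2*, cyclin A2, gave 4.45, 4.46, 4.31 and 4.30 against 4.52, 4.58, 4.54 and 4.44, with a change of -0.14 that did not pass (limma adjusted p = 0.130). *Plk1* encodes a kinase that drives mitotic entry and spindle assembly. It had the same mean of 5.61 in both groups, with a change of 0.01 (interval -0.27 to 0.28) whose sign differed between scalings, and its values in each embryo are given with the sexes. *Ccnb2*, *Cdc25b*, *Cdc25c* and *Wee1* had changes between -0.10 and 0.03, with a lowest adjusted p of 0.263.

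No gene of the centromere and kinetochore, of the spindle and chromosome structure or of cytokinesis was called. *Cenpa*, the histone H3 variant that marks centromeres, was at 3.54, 3.63, 3.74 and 3.48 with HOM fathers and at 3.72, 3.69, 3.88 and 3.86 with HET fathers, overlapping by 1 embryo, with a change of -0.19 (limma adjusted p = 0.121). *Cenpe*, *Cenpf*, *Ndc80* and *Nuf2*, which encode proteins that hold microtubules at the kinetochore, ranged from -0.13 to 0.11. *Kif11*, the kinesin that pushes the spindle poles apart, was at 1.34, 1.25, 1.30 and 1.29 against 1.39, 1.28, 1.28 and 1.26, a change of -0.01 (interval -0.12 to 0.10). *Top2a*, the topoisomerase that untangles sister chromatids, was at 3.31, 3.22, 3.31 and 3.32 against 3.28, 3.19, 3.24 and 3.18, a change of 0.07 (interval -0.04 to 0.18). Both genes overlapped between the groups, and the sign changed between scalings. *Kif2c*, *Tpx2*, *Nusap1*, *Hmmr* and *Ckap2*, all of which act on spindle microtubules, ranged from -0.17 to 0.04, with *Hmmr* nearest to the threshold (limma adjusted p = 0.0675). Among the genes of the central spindle and cytokinesis *Prc1*, which bundles the microtubules between the separating chromosomes and is named here for its value, changed by -0.24 without passing (limma adjusted p = 0.0838), and *Kif20a*, *Kif23*, *Ect2* and *Anln* ranged from -0.06 to 0.17.

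**Figure D3:**
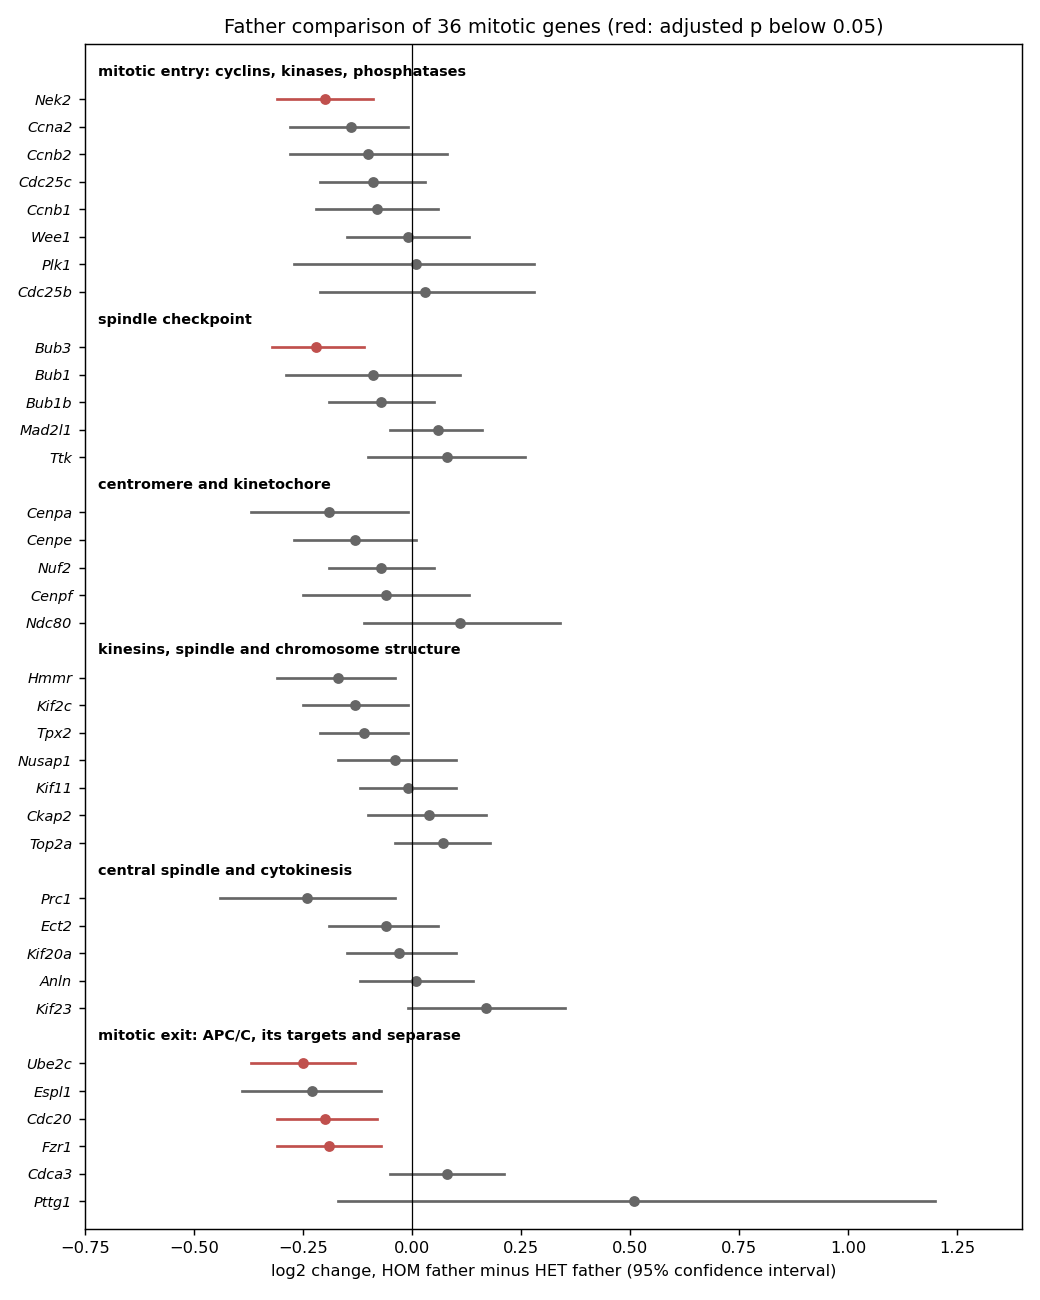
Fitted log2 change, HOM father minus HET father (x axis), with its 95% confidence interval (bars) for the brightest probe of each of the 36 genes, grouped by role, red where the adjusted p was below 0.05. All intervals except that of *Pttg1*, which runs from -0.17 to 1.20, lie between -0.50 and 0.50.

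Of the 46 probes 32 (69.6%) had a fitted change below 0, compared with 54.1% of all tested probes. By quartile from the brightest down, these were 19 of 26, 10 of 16 and 3 of 4, compared with 72.2%, 60.7% and 48% of all. At an unadjusted p below 0.05, 15 (32.6%) were lower, compared with 17.3% of all. By the same quartiles these were 10 of 26, 4 of 16 and 1 of 4, compared with 32.5%, 21.1% and 10.9% of all. At that limit 0 members were higher, compared with 17.4% of all, and with 7.72%, 13.5% and 21.9% of all in these quartiles. For 35 genes the 95% confidence interval lay within ±0.5 on the log2 scale, which is 1.41-fold. Every HOM father embryo lay below every HET father embryo for 9 of the 46 probes (19.6%), compared with 13.0% of all probes measured on every array, and above for 0 of 46, compared with 14.1%. These 2 shares of all probes were not counted by quartile of signal, so they are not matched to the brightness of the members. Relative to each gene's own mean, the median over the 36 genes was -0.01, -0.03, -0.04 and -0.09 in the 4 embryos of HOM fathers and 0.03, 0.04, 0.06 and 0.00 in those of HET fathers. HOM father embryo 4 lay above the gene's mean for 4 of the 36 genes and HET father embryo 3 for 26. Of the sums over tissue markers, that of the heart did not overlap between the father groups. In units of each array's 75th percentile, the 4 heart markers summed to between 46.2 and 53.7 with HOM fathers and between 55.1 and 59.1 with HET fathers, the 4 blood markers to 602–771 and 764–800, and the 3 trophoblast markers with a probe to 8.38–13.4 and 13.0–24.5, although within the last *Gcm1* changed by -1.07 and *Prl3d1*, which did not pass the test, by 1.88. The sums of the 4 markers each of somitic mesoderm (12.9–14.0 and 13.4–16.4), neural tissue (9.39–12.6 and 10.1–12.8) and endoderm (186–250 and 224–255) overlapped, as did those of blood and trophoblast. The part of tissue make-up in the changes of the mitotic genes was not tested.

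**Figure D4:**
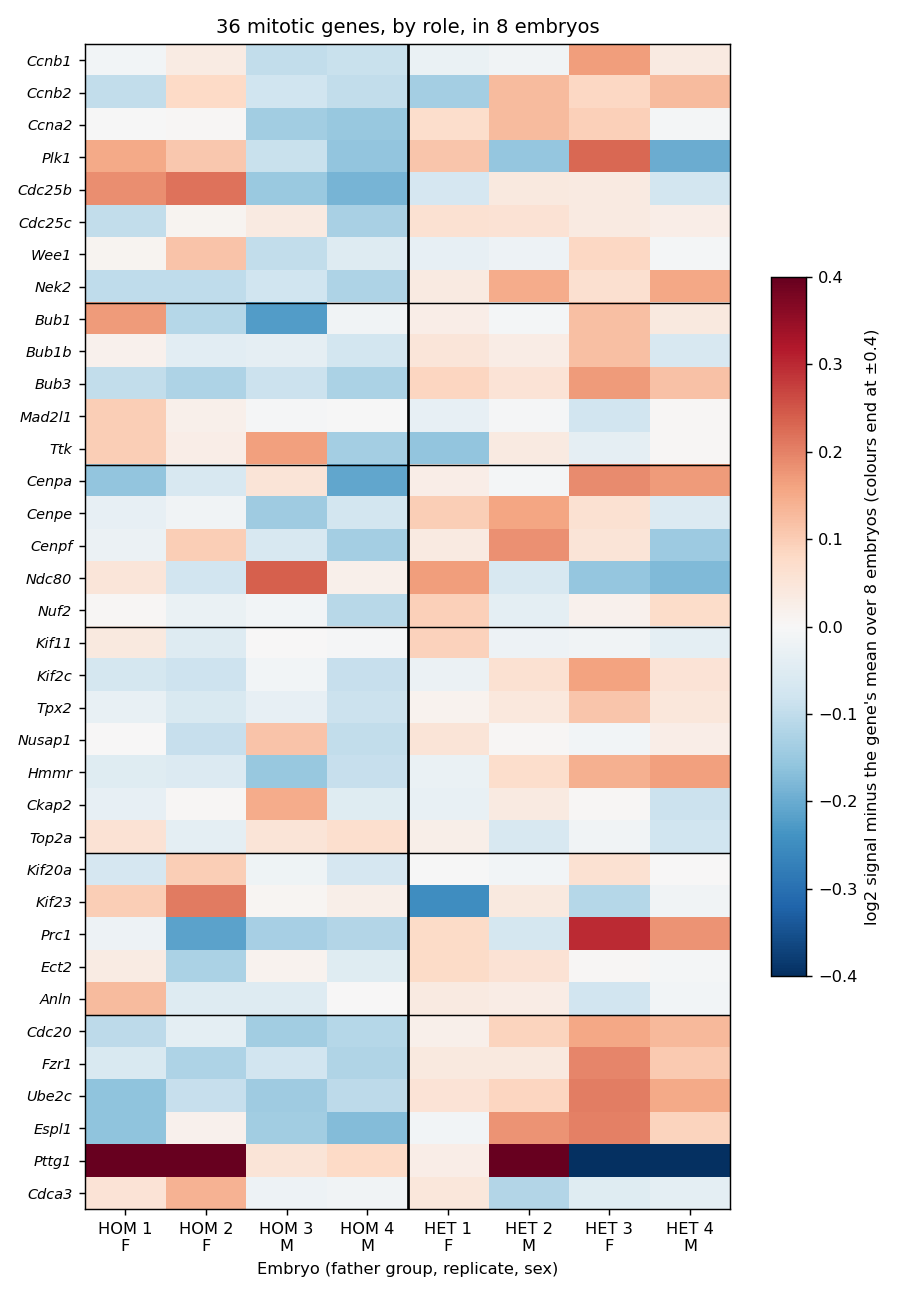
Normalised log2 signal minus the gene's mean over all 8 embryos (colour, ending at ±0.4) for 36 genes (rows, grouped by role) in each embryo (columns, by father group, replicate and sex). Most genes stay within a narrow range, and *Pttg1* is far below its mean in HET father embryos 3 and 4. *Plk1* is higher in every female than in every male, a difference that did not pass the test by sex (limma adjusted p = 0.307).

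The calls by father depended on single embryos and on the filter. When embryos of HOM fathers 1 to 4 were left out in turn, 2, 4, 3 and 2 of the 5 genes stayed below an adjusted p of 0.05, and for embryos of HET fathers the counts were 5, 2, 3 and 2, with *Ube2c* and *Bub3* among them each time. None of the 5 stayed when all probes were tested without the filter on dim probes (limma adjusted p from 0.0742 to 0.167). Without that filter calls were fewer over the whole array, with 0.788% of all 55681 probes lower, compared with 8.69% in the main fit. With slide position as a block none of the 5 stayed either (limma adjusted p from 0.149 to 0.187), and 2, *Ube2c* and *Nek2*, stayed under quantile normalisation.

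*Pttg1* was the exception to the narrow spread of the mitotic genes, and was chosen for this after its values were seen. It encodes securin, the inhibitor of separase that the APC/C destroys at anaphase. The brighter *Pttg1* probe was at 5.28, 5.37, 4.93 and 4.96 in embryos of HOM fathers and at 4.91, 5.38, 4.02 and 4.20 in those of HET fathers, and the dimmer at -2.28, -1.95, -2.46 and -2.57, and -2.40, -1.82, -2.94 and -3.02. On both probes HET father embryo 2 and HOM father embryos 2 and 1 were the 3 highest, and HET father embryos 3 and 4 were the lowest. The difference between fathers, 0.51 ± 0.30 (interval -0.17 to 1.20, limma adjusted p = 0.261), did not pass the test and was -0.0046 without those 2 embryos. Without them none of the 5 lower genes passed either, with changes from -0.20 to -0.13.

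Over all 8 embryos the brighter *Pttg1* probe spanned 1.36 log2 units, or 2.56-fold. Its SD within father groups was 0.473, above that of 92.5% of tested probes, whereas 32 of the 36 genes had an SD below the median of all tested probes, 0.129, and the next highest, *Plk1*, had 0.181. The SD of the genes was not compared with that of probes of like signal. Some markers of tissue around the embryo, though not all, set the same embryos apart. *Prl8a2*, a prolactin family gene of the decidua, was at 0.29, 4.14, 4.45 and 1.30 with HOM fathers and at 1.85, 1.88, -1.42 and -3.99 with HET fathers, so that embryos 3 and 4 of HET fathers were again lowest. They were lowest also for the brighter probe of *Prl3d1*, a gene of trophoblast giant cells, at -1.05, 1.97, 1.12 and 0.39 with HOM fathers and at 0.44, 0.03, -2.39 and -3.16 with HET fathers. The dimmer *Prl3d1* probe, well above background on 5 of 8 arrays, was lowest in HOM father embryo 1 (-5.98). HET father embryos 3 and 4 came next, at -5.38 and -5.26. The brightest probe of *Gcm1*, a transcription factor of the placental labyrinth, was highest in them, at 2.98, 3.25, 2.91 and 2.98 with HOM fathers and 3.55, 3.73, 4.52 and 4.61 with HET fathers. The decidual markers *Wnt6* and *Bmp8a* set them apart little or not at all. *Wnt6* was at 2.23 and 2.1 in them and from 2.17 to 2.4 in the others. *Bmp8a* was lowest in them, but ran only from -2.11 to -1.83 over all embryos of HET fathers. With HOM fathers it ran from -1.23 to -1.12, and its change by father of 0.83 passed the test (limma adjusted p = 0.000352). Over the whole lists, the 4 decidual markers summed to between 6.38 and 27.1 with HOM fathers and between 4.60 and 9.16 with HET fathers, in units of the 75th percentile, with *Prl3c1* on no array, and the trophoblast markers are given above. Whether tissue around the embryo had a part in the values of *Pttg1* was not tested.

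**Figure D5:**
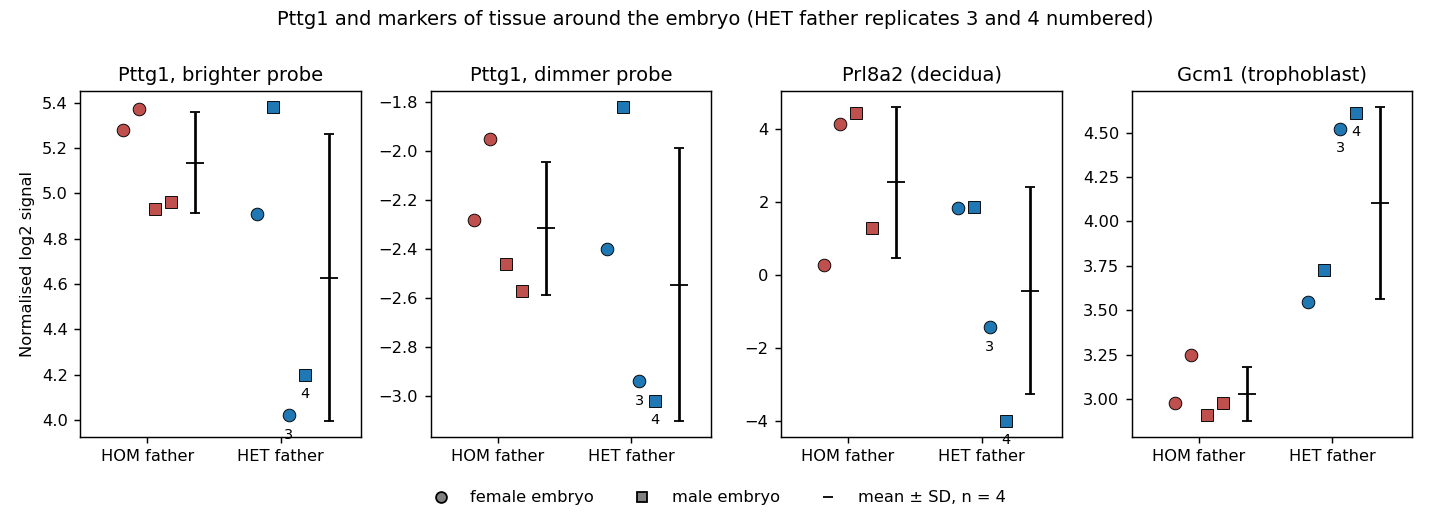
Normalised log2 signal (y axis, a scale for each panel) in each embryo for both probes of *Pttg1*, for *Prl8a2* and for *Gcm1*, by father group, with females as circles, males as squares and the mean ± SD (*n* = 4) as bars. HET father replicates 3 and 4, numbered in the panels, are lowest for both *Pttg1* probes and for *Prl8a2* and highest for *Gcm1*.

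A further case of wide spread, also chosen after its values were seen, was specific to 1 probe. The dimmer *Nuf2* probe was at -1.16, -1.74, -2.06 and -1.95 with HOM fathers and at -1.94, -1.02, -0.99 and -1.83 with HET fathers, whereas the brighter was at 1.45, 1.42, 1.44 and 1.34, and 1.54, 1.41, 1.46 and 1.52. The dimmer probe spanned 1.07 log2 units and the brighter 0.20. Neither passed the test by father (limma adjusted p of 0.529 and 0.367). For the 8 genes with several probes the changes by father differed between probes by at most 0.28.

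To determine whether the sexes differed, females were compared with males with the father as a covariate. None of the 46 probes passed an adjusted p of 0.05, compared with 0.121% of all tested probes, and 1 had an unadjusted p below 0.05, compared with 5.22% of all. That probe was *Plk1*, named for this value. In females it was at 5.76 and 5.72 with HOM fathers and at 5.72 and 5.84 with HET fathers, and in males at 5.52 and 5.45 and at 5.45 and 5.41. Every female lay above every male, which held for 1 of the 46 probes and for 0.956% of all, and the reverse held for 0 of the 46 and for 0.943% of all. The difference was 0.30 ± 0.05 (SE), or 1.23-fold, and it was 0.25 within the slide of HOM fathers and 0.35 within that of HET fathers, but it did not survive adjustment over all probes (limma adjusted p = 0.307). The median difference between females and males over the 36 genes was 0.02.

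No member had a father effect that differed between the sexes at an adjusted p below 0.05, compared with 0.0639% of all tested probes. At an unadjusted p below 0.05 there were 2, compared with 4.51% of all. *Cdc25b*, a phosphatase that activates the mitotic kinase, was at 2.17 and 2.20 in females and at 1.84 and 1.80 in males of HOM fathers, whereas with HET fathers females were at 1.92 and 2.02 and males at 2.03 and 1.91 (limma adjusted p = 0.921). *Kif23*, a kinesin of the central spindle, was the other (limma adjusted p = 1.00).

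Other genes of the cell cycle were counted in the same way, against 8.69% of all tested probes lower and 12.3% higher. Of 126 tested probes of 100 further mitotic genes, 10 (7.94%) were lower and 3 (2.38%) higher at an adjusted p below 0.05, with a median change of -0.05. The probes with the lowest adjusted p were those of *Pmf1*, a kinetochore subunit (-0.50), *Lin37*, a subunit of the DREAM repressor complex (-0.34), *Cenpu*, an inner centromere protein (0.26, with 0.18 at its brightest probe, which did not pass), and *Anapc13*, a subunit of the APC/C (-0.28), with limma adjusted p of 0.00192, 0.00327, 0.00746 and 0.0102. Of 18 probes of 14 genes of the APC/C and its partners 3 (16.7%) were lower, for *Anapc13* and both tested *Anapc7* probes (-0.20 and -0.26). None was higher, and the median was -0.09. These 14 genes are a sublist of the further mitotic genes, and every other sublist had a smaller share of lower probes. The probes of these lists were not counted by quartile of signal. In the brightest quartile 18.0% of all tested probes were lower, so the 16.7% is not a result about the APC/C. DNA replication genes had 6 of 52 probes lower (11.5%), with *Rfc4* at -0.19 on its brightest probe and -0.51 on a dimmer one and *Lig1* at -0.23, and 2 (3.85%) higher, with a median of -0.06. The higher ones were *Gins3* (0.25) and *Ccne2*, cyclin E2, which was well above background on only 2 of the 4 HET father arrays. In the list of Aurora kinases, the passenger complex and *Cdk1* 2 of 14 probes were called at 2-fold, compared with 1.26% of all, for *Aurkb* (1.79) and a dimmer probe of *Cdk1* (1.36). The lists were chosen with earlier results of these data known, so this share describes the named probes and is not a result about the list. The brightest *Cdk1* probe was higher by 0.28, and the dimmest, at -0.25, did not pass (limma adjusted p = 0.206). None of the 14 was lower, and their median was 0.03. Differences between these lists were not tested.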

How the data were processed

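RNA of 8 E8.5 embryos was measured on single-colour arrays from 0.2 µg of total RNA each. The deposited values are spot intensity on a linear scale, which the authors made with Agilent Feature Extraction 11.0.1.1 (per the submitters' processing notes), background-subtracted and not normalised between arrays. Other deposited values, flags of 0 or 1 given by the authors' software for spots well above background, saturated or outlying, were used as filters. A further deposited table gave, in rounded form, the intensity the authors had for each array.

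Of 59305 non-control spots outlier-flagged ones were left out. Intensity was converted to log2, the array's 75th percentile was subtracted and spots of a probe were averaged. Tested probes had to be flagged well above background, with a signal no lower than the 20th percentile of the array, on 4 or more of 8 arrays. This low-signal filter kept 29732 of 55681 probes (53.4%), and only the 8 arrays limit the precision. Accessions were matched without versions to RefSeq genes of GRCm38.p6 (27235 probes, 48.9%). Groups, sexes and replicate numbers came from the labels.

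Father, sex (with father as a covariate) and their interaction were tested with limma 3.58.1 (lmFit and eBayes, two-sided, R 4.3.3) on all tested probes with Benjamini-Hochberg adjustment. The script was tested on simulated data. The value of a gene is that of its brightest tested probe. Values in every embryo were given for members called by father or sex and for 10 fixed genes (*Ccnb1*, *Ccna2*, *Plk1*, *Cdc20*, *Mad2l1*, *Bub1*, *Bub1b*, *Kif11*, *Top2a* and *Cenpa*), and up to 4 examples were named in each other list. The members and lists were chosen with earlier results of these data known. Alternatives were scaling, background, filter, variance model, blocks and left-out embryos. *Kif14* and *Prl2c2* had no matched probe. Promoter windows are those of RefSeq for GRCm38.p6.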

Additional observations from a re-analysis of the deposited data

Results flagged for a closer look

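Among 74 groups of 4 embryos examined for a single outlying value (36 genes and the share of spots above background, in both father groups), 2 had a value whose gap to the nearest other, relative to the range of the group, exceeded the 95% limit of Dixon's test. Chance alone flags about 1 in 20 groups, or 3.7 of 74. Both were HOM father embryo 2, a female. Its normalised log2 signal for *Ccnb2*, cyclin B2, was 5.10, above the 4.92 to 4.94 of the other embryos of HOM fathers. For *Top2a* its signal was 3.22, below the 3.31 to 3.32 of the others.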

How the results depend on the processing

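The count of member probes called by father at an adjusted p below 0.05 was 7 in the main comparison. It was 25 under median scaling, which moved the median of all tested probes to -0.21 and at which 34.8% of all probes were lower. Without the filter on dim probes it was 0, and 0.788% of all probes were lower. The count was 0 with slide position as a block and 0 without HET father replicates 3 and 4 (an alternative chosen after seeing the data, as was normexp). With a replicate block it was also 0, and the replicate numbers did not pair the samples, since the deviations of same-numbered embryos correlated at 0.19, -0.09, -0.13 and 0.15, and 2 of the 4 HOM father arrays and 1 of the 4 HET father arrays correlated best with their own number. Leaving out each embryo in turn gave between 2 and 9. Under the other alternatives it lay between 5 and 9, with 1 *Ccnb1* probe higher under normexp. No alternative gave a member call at 2-fold, by sex or by interaction. In the main fits 15, 1 and 2 member probes had an unadjusted p below 0.05 in the father, sex and interaction comparisons.

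Some changes close to 0 reversed. Under median scaling the changes were -0.18 for *Plk1*, -0.13 for *Mad2l1* and -0.12 for *Top2a*, all above the shift of all probes. With normexp (run on the median spot signal in place of the planned mean signal, which was not run) they were -0.0857 for *Plk1* and -0.0410 for *Top2a*. With slide position as a block *Plk1* was at -0.0051 and *Kif11* at 0.0068, and *Kif11* was at 0.0144 under quantile normalisation. Leaving out each embryo in turn gave between -0.0585 and 0.0846 for *Plk1* and between -0.0221 and 0.0207 for *Kif11*. *Pttg1* was at -0.0046 without HET father replicates 3 and 4. The cause was not tested. The 5 lower genes kept their direction in all 21 alternatives, and *Espl1* passed in 5. Depth does not limit these genes, which were well above background on every array, but 4 embryos per group on 1 slide each do.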
